A study of Mus musculus with 50 samples.

Results

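Transcripts of the axon injury and regeneration program were followed in the spinal cord and testis of the wobbler mouse. The members were 10 genes chosen by symbol: the transcription factors Atf3, Jun and Sox11, the growth genes Sprr1a and Gap43, the stress gene Gadd45a, the peptidase gene Ecel1, and the neuropeptide genes Gal, Npy and Vgf. Among the 9930 genes named on the array, 9 of the 10 members had a probe and Vgf had no named probe. Those 9 genes had 11 probes, because Jun had 3. In spinal cord 8 member genes (9 probes) had enough values for the test, and in testis 9 genes (10 probes) did.

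The wobbler mutant (wr/wr) is homozygous for a mutant allele of Vps54, whose protein works in the GARP tether for vesicles that return from endosomes to the Golgi. Homozygous mice lose motor neurons in the cord, and males do not form normal sperm. The series compared wr/wr RNA with wild-type (wt) RNA of the same tissue on 2-colour arrays, and the sample labels give no age or background strain. Spinal cord had 10 arrays of 3 mutant RNAs, namely 4 arrays of pool1 and 4 of pool2, each made from 4 mice, and 2 arrays of mouse 5995 alone. Testis had 40 arrays of 10 individual mutant mice, 4 per mouse. All 9 cord mice were among the 10 testis mice, so both tissues came from the same animals. Each tissue had 1 wild-type pool as its control, hybridised to every array, so the spread between wild-type animals was not measured. The sample labels list 10 mice in that pool and the labelling protocol names 6, a difference that was not settled. Every mutant RNA was labelled with Cy5 on some of its arrays and with Cy3 on as many others.

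When a peripheral axon is cut or a motor neuron is stressed, retrograde signals through the kinases DLK and JNK reach the nucleus. There c-Jun and ATF3 dimerise and act on a set of regeneration-associated genes. SPRR1A and GAP-43 belong to the growing axon and its growth cone, and galanin and neuropeptide Y are peptides that injured neurons begin to make. Atf3 is low in uninjured adult motor neurons and is a widely used marker of their damage.

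The sequences in front of 3 members are shown because AP-1 dimers, which contain Jun and can contain ATF3, bind a short palindrome. Each is the 250 bases before the RefSeq transcript start (build GRCm38.p6, minus strand of the chromosome, written in the direction of the gene). Sprr1a lies at chr3:92485882-92486131, Atf3 at chr1:191183334-191183583 and Jun at chr4:95052223-95052472. Capitals mark 4 motifs. The AP-1 element is TGAGTCA, and its variant known from the Jun promoter is TGACATCA. The core of the cAMP response element is written CGTCA, and the TATA box TATAAA.
Sprr1a: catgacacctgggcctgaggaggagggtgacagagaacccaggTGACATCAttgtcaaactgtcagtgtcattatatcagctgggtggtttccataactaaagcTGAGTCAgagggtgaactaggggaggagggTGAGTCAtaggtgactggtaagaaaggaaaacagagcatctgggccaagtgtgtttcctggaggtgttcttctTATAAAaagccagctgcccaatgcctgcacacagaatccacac
Atf3: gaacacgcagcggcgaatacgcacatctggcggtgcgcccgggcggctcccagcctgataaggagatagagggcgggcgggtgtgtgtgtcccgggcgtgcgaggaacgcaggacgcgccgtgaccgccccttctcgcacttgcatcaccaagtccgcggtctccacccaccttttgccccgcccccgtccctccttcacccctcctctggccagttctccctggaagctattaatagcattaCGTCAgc
Jun: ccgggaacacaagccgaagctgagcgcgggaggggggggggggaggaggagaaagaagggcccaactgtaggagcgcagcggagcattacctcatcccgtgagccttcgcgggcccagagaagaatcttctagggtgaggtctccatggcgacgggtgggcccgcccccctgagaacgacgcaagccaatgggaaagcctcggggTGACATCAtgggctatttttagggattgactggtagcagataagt

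With the base before the start counted as -1, the Sprr1a sequence held TGAGTCA from -146 and from -116, the variant from -207 and the TATA box from -43. The Atf3 sequence held CGTCA from -7, and the Jun sequence the variant from -45. Windows of 300 bases, reaching 50 bases past the start, were searched on both strands for 8 members, without Gap43 and Vgf. TGANTCA was found in Sprr1a alone of the 8, and in 7.81% of all 32851 windows. TATAAA, again in Sprr1a alone of the 8, was in 13.6% of them. TGACATCA was in Sprr1a, Jun and, on the opposite strand, Sox11, and in 3.62% of windows. CGTCA was in Atf3 and, on the opposite strand and past the start, in Gal, and in 20.8% of windows. TGACGTCA, the full cAMP response palindrome, was in none of the 8 and in 1.79% of windows. CGTCA and TGACATCA were added after the windows had been read. The motifs overlap in letters (CGTCA lies inside TGACGTCA), and a match is a description of letters.

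The values are log2 ratios as deposited, each array centred on its own median, with 0 for no difference and 1 for a doubling. They were read as wr/wr over wild type on every array, which is likely but not stated by the labels. On arrays with the mutant RNA in Cy5 this reading and a plain Cy5 over Cy3 reading coincide. A ratio carries no abundance, so the labelled tissues could not be checked by the presence of their marker genes, and fewer cells of a type cannot be told apart from less RNA per cell. Cord arrays held 18338 to 20034 values each and testis arrays 19070 to 20189, and the number of arrays limits the precision. The cord arrays were wider, with a median absolute deviation of 0.521 at the median array against 0.259 in testis. In cord the dye orientations did not rank the probes alike, with a median rank correlation of 0.290 between arrays of the same RNA and dye but -0.0795 between arrays of the same RNA and opposite dyes. For that reason the cord values of the members are given by dye. A further 1472 values (0.149%), on 1189 probes, were between 15.64 and 16.98 in size with all 586 above 0 where the mutant was in Cy5 and all 886 below 0 where it was in Cy3. Read as wr/wr over wild type, the low channel was Cy3 each time. They are called floor-like here.

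In spinal cord the RNA of Atf3, Sprr1a, Ecel1, Gap43 and Npy had a mean ratio above 0 in every one of the 3 mutant RNAs, as had probe 5735 of Jun at a lower mean, and Sox11 was below 0 in all 3. No member passed limma's test after Benjamini-Hochberg adjustment over 17055 probes (adjusted p of 0.542 or more), and neither did any other probe on the array (background 0%). Without adjustment, 4 of the 9 member probes had p under 0.05, all with a mean above 0 (Sprr1a, Atf3, Ecel1 and Gap43). The same was true of 4.29% of all probes tested (732), with 4.36% in the other direction and 8.65% in both. Of the 9 probes, 6 had a mean above 0 in all 3 RNAs, as did 18.5% of probes tested. The members were picked with earlier results of these data known, so these counts describe them and are no independent evidence.

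Atf3, the injury-induced member of the ATF/CREB family, had ratios in pool1 of 0.72 and 0.49 with the mutant in Cy5 and 0.22 and 0.31 in Cy3. In pool2 they were 1.27 and 0.02 in Cy5 and 0.46 and 0.08 in Cy3, and in mouse 5995 they were 0.95 in Cy5 and 0.98 in Cy3. All 10 arrays were therefore above 0, which 0.944% of probes tested shared, although 2 of the pool2 arrays were close to 0 and 1 of these was at -0.003 before centring. The mean over RNAs was 0.62 ± 0.30 (SD, n = 3; 95% interval 0.16 to 1.07), a 1.53-fold level. Limma gave Atf3 p = 0.0199 before and 0.542 after adjustment. It came to 0.73 on Cy5 arrays and 0.50 on Cy3 arrays, and mouse 5995, with 0.96, stood above the pools, with 0.44 and 0.45. The 2 arrays of that mouse were the widest in cord (median absolute deviation 0.729 and 0.716). Atf3 was at percentiles 89.1 and 84.9 of the probes on them, and from 51.4 to 97.2 on the pool arrays. Atf3 ranked above 95.6% of the probes tested.

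Jun, its usual dimer partner, was less clear. Probe 3296 read 0.20 and 0.54 (Cy5) and 0.192 and 1.498 (Cy3) in pool1, 0.34 and 0.51 (Cy5) and 0.22 and -0.28 (Cy3) in pool2, and -0.24 and -0.47 in mouse 5995. The pools were thus above 0 and the single mouse below it. The mean was 0.15 ± 0.48 (SD, n = 3; interval -0.49 to 0.78). Probe 5735 of Jun averaged 0.11 ± 0.17 (SD, n = 3), with 0.38 on Cy5 and -0.15 on Cy3 arrays. Limma gave unadjusted p = 0.546 and 0.420 for these probes. The third Jun probe, 20296, had values on 4 of the 10 arrays and was not tested, and 1 of the 4 was a floor-like 16.3. These intervals include changes as large as that of Atf3 for probe 3296, so no absence of a change in Jun can be read from them.

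Sox11, a developmental transcription factor that supports axon regrowth in sensory neurons, lay slightly the other way. Its ratios were -0.05, -0.17, -0.34 and -0.25 in pool1 and -0.10, -0.14, -0.85 and 0.40 in pool2, Cy5 arrays first. Mouse 5995 gave -0.86 in Cy5 and 0.30 in Cy3. All 5 Cy5 arrays and 3 of 5 Cy3 arrays were below 0, and the mean was -0.22 ± 0.05 (SD, n = 3; interval -0.51 to 0.08). It had p = 0.109 before adjustment by limma. Means below 0 in all 3 RNAs were found for 20.7% of probes tested.

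Sprr1a encodes a small proline-rich protein of the cornified envelope that injured neurons also make, and it had the highest mean of the members. Its ratios were 1.58 and 2.03 (Cy5) and 0.88 and 1.81 (Cy3) in pool1. In pool2 they were 1.92 and -0.33 in Cy5 and 1.20 in the single Cy3 array with a value, and in mouse 5995 0.29 in Cy5 and 1.09 in Cy3. So 8 of 9 arrays were above 0, and the 2 Cy5 arrays of the same pool2 RNA lay at opposite ends of the range. The mean was 1.09 ± 0.45 (SD, n = 3; interval 0.49 to 1.69), a 2.13-fold level above 98.96% of probes. Its p by limma was 0.00759, adjusted 0.542. Cy5 arrays gave 0.96 and Cy3 arrays 1.21. Its promoter is the one printed above with a pair of TGAGTCA elements.

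Gap43, the growth cone protein, had a small spread between RNAs but a dye difference. It read 0.56, 0.53, 0.10 and 0.05 in pool1, 0.57, 0.54, 0.39 and 0.21 in pool2, and 0.70 and 0.13 in mouse 5995, with Cy5 arrays first in each. Every array was above 0, as for 0.944% of probes tested. The Cy5 mean was 0.60 and the Cy3 mean 0.17. That difference of 0.43 was near the median size over all probes tested, 0.42. The mean was 0.38 ± 0.06 (SD, n = 3; interval 0.09 to 0.68), a 1.305-fold level. For Gap43 limma gave p = 0.0237, adjusted 0.542. A fit of all 10 arrays with a term for the dye and the RNA as a random block called 362 probes in cord, and Gap43 was the only member among them (0.38, adjusted p = 0.0181). In that fit the estimated correlation within an RNA was 0.0386, which treats arrays of 1 RNA almost as separate samples. Npy, Sprr1a, Atf3 and Ecel1 had adjusted p of 0.0554, 0.0674, 0.0696 and 0.0884 there.

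Ecel1 encodes an endothelin-converting-enzyme-like peptidase of neurons, known as a gene induced by nerve damage, and its ratio turned with the dye. With the mutant in Cy5 it read 0.77 and 0.72 in pool1, 1.77 and 1.14 in pool2 and 2.31 in mouse 5995. With the mutant in Cy3 it read -0.08 and 0.02 in pool1, 0.15 and -0.57 in pool2 and -0.06 in mouse 5995. The RNA means were 1.51 in Cy5 and -0.10 in Cy3, where the median size of a dye difference over all probes tested was 0.42. The difference between orientations, 1.61, had limma p = 0.0168 and adjusted p = 0.364, in a test where 13.7% of all probes had an unadjusted p under 0.05 and none passed the adjustment. Averaged over both dyes Ecel1 stood at 0.70 ± 0.39 (SD, n = 3; interval 0.16 to 1.24), a mean that rests on the Cy5 arrays. That mean had p = 0.0230 by limma, adjusted 0.542.

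**Figure D1:**
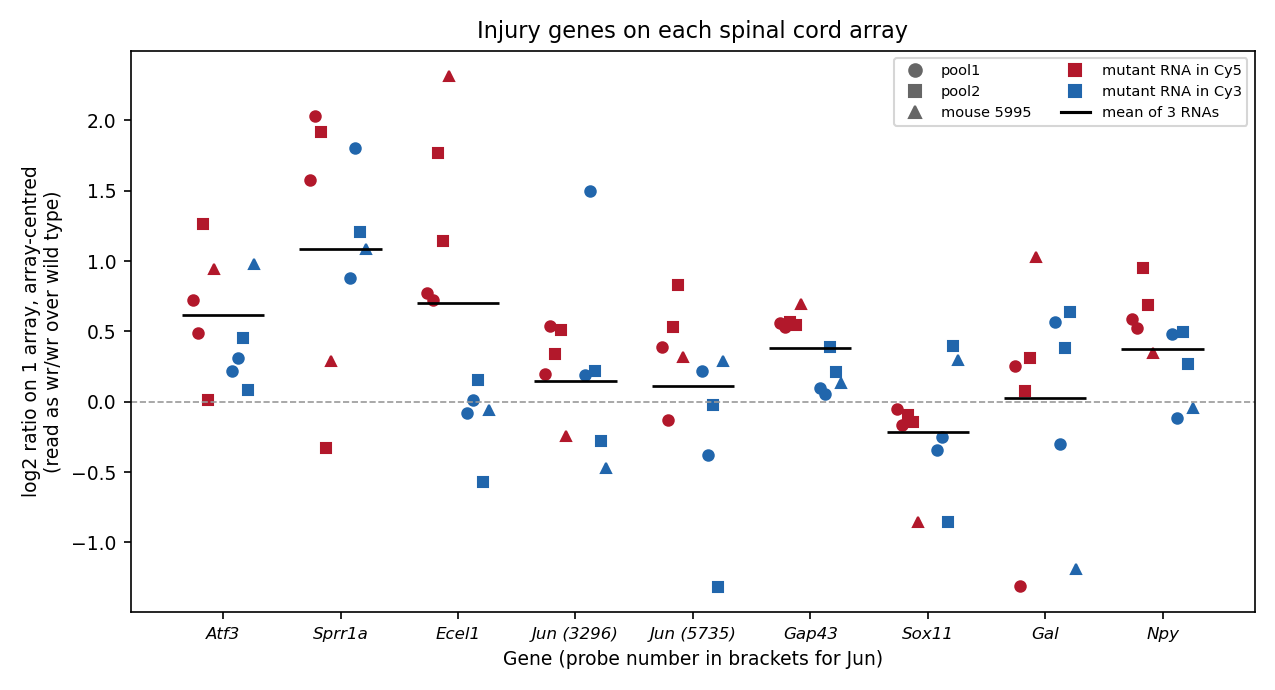
Log2 ratios of the 9 member probes tested in spinal cord, 1 point per array. Shape gives the RNA, colour the dye of the mutant RNA and the bar the mean of the 3 RNAs. Atf3 and Gap43 have all 10 points above 0, as had 0.944% of probes tested on every array with a value. The RNA means of Ecel1 are 1.51 in Cy5 and -0.10 in Cy3.

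Gadd45a, a stress gene downstream of p53 and ATF pathways, had cord values on 6 of 10 arrays, from -1.10 to 0.84, and was not tested there. Of the neuropeptides, Npy read 0.59, 0.53, 0.48 and -0.12 in pool1, 0.95, 0.69, 0.50 and 0.27 in pool2, and 0.34 and -0.04 in mouse 5995, Cy5 arrays first. It was above 0 on 8 of 10 arrays and on all 5 Cy5 arrays. The mean was 0.37 ± 0.22 (SD, n = 3; interval -0.02 to 0.77), with 0.57 on Cy5 and 0.18 on Cy3 arrays. Limma gave it p = 0.0566 before adjustment. Gal ranged from -1.31 to 1.03 over the 10 arrays, with 7 above 0. Its mean was 0.03 ± 0.29 (SD, n = 3; interval -0.42 to 0.47), so the galanin and neuropeptide Y transcripts had means of different size and neither passed the test.

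**Figure D2:**
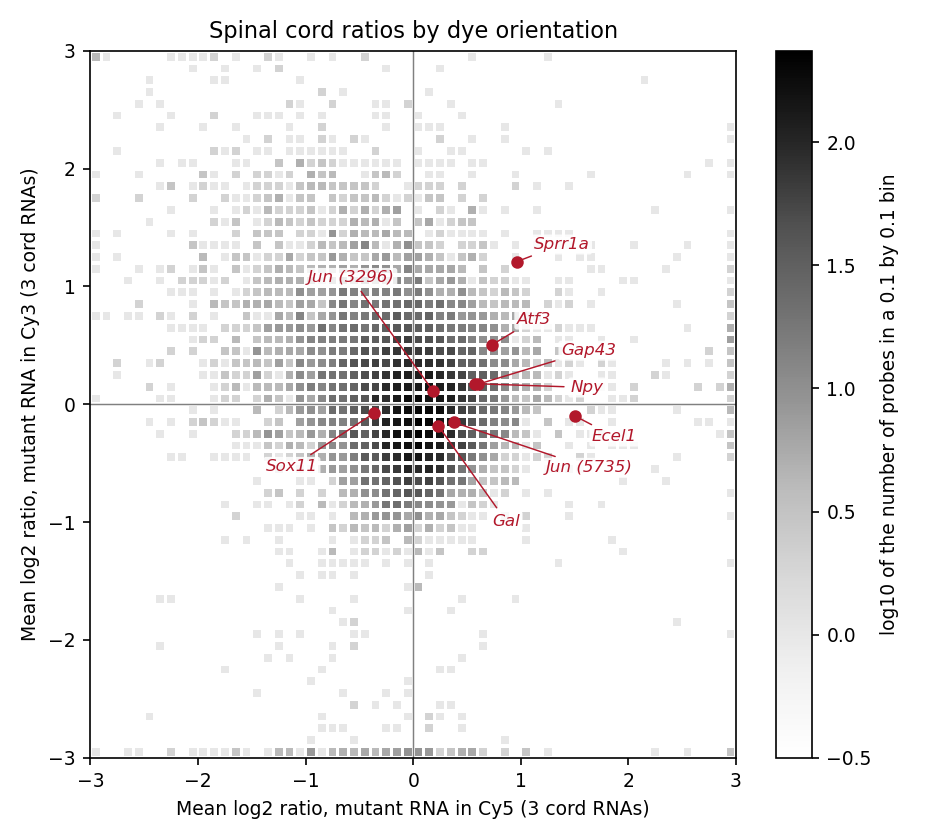
Mean ratio of the 3 cord RNAs with the mutant in Cy5 (horizontal) against that with the mutant in Cy3 (vertical), both log2. Grey squares count all probes tested per bin of 0.1, with values past 3 placed in the edge bins, and red points are the members. Sprr1a and Atf3 lie above 0 on both axes, Gap43 and Npy too but at lower Cy3 values, and Ecel1 to the right just below 0.

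Both dye orientations gave a mean above 0 for 5 member probes (Atf3, Sprr1a, Gap43, Npy and Jun probe 3296) and for 23.1% of all probes tested. If the ratios were instead Cy5 over Cy3, the cord means would be 0.11 for Atf3, -0.12 for Sprr1a, 0.80 for Ecel1, 0.21 for Gap43, 0.20 for Npy, 0.21 for Gal and -0.14 for Sox11. Under that reading Sprr1a turns sign and Ecel1 is the highest member, and in the test no probe is called either.

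In testis the members lay near 0. Over the 10 mice Atf3 ran from -0.19 to 0.02 (median -0.09), with 8 mice below 0 and a mean of -0.08 ± 0.07 (SD, n = 10; limma adjusted p = 0.0830). Gap43 ran from -0.26 to 0.56 (median -0.13), with 9 of 10 mice below 0 and a mean of -0.07 ± 0.23 (SD, n = 10; adjusted p = 0.521 by limma). The exception was mouse 6065, whose Cy5 arrays averaged -0.88 and Cy3 arrays 2.00. Without that mouse the mean was -0.14 and limma's adjusted p was 0.0274.

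Npy, the single member called in testis, ran from -0.36 to -0.02 (median -0.13) and was below 0 in all 10 mice. Its mean was -0.13 ± 0.10 (SD, n = 10; limma adjusted p = 0.0348), a fall to 0.911-fold. The test called 12.3% of all 20218 probes in testis, 5.06% with lower values, and 3.17% of probes were below 0 in every mouse. The call was lost when any of 7 mice (5907, 6069, 6335, 5995, 6493, 6163 or 5997) was left out, with adjusted p between 0.0514 and 0.0788 by limma. It was also lost with ratios read as Cy5 over Cy3 (adjusted p = 0.149) and without the 3 mice whose dye orientations disagree (0.0516). On Cy3 arrays alone the Npy mean was 0.00.

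The testis means of Sprr1a (0.02 ± 0.51), Ecel1 (0.02 ± 0.17), Sox11 (0.05 ± 0.24) and Gal (0.02 ± 0.12; SD, n = 10 each) did not pass the test. Sprr1a was the most variable of these, from -0.82 in mouse 5906 to 1.07 in mouse 6065. Jun averaged -0.10 ± 0.18 on probe 3296 and -0.06 ± 0.14 on probe 5735 (SD, n = 10). Gadd45a had both dyes in 8 mice, and its mean of -2.30 ± 3.75 (SD, n = 8; limma adjusted p = 0.220) came from floor-like Cy3 values in mice 5907 and 5997. The other 6 mice lay between -1.48 and 0.32, and Gadd45a passed the filter on missing values only with the 2 floor-like values counted.

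**Figure D3:**
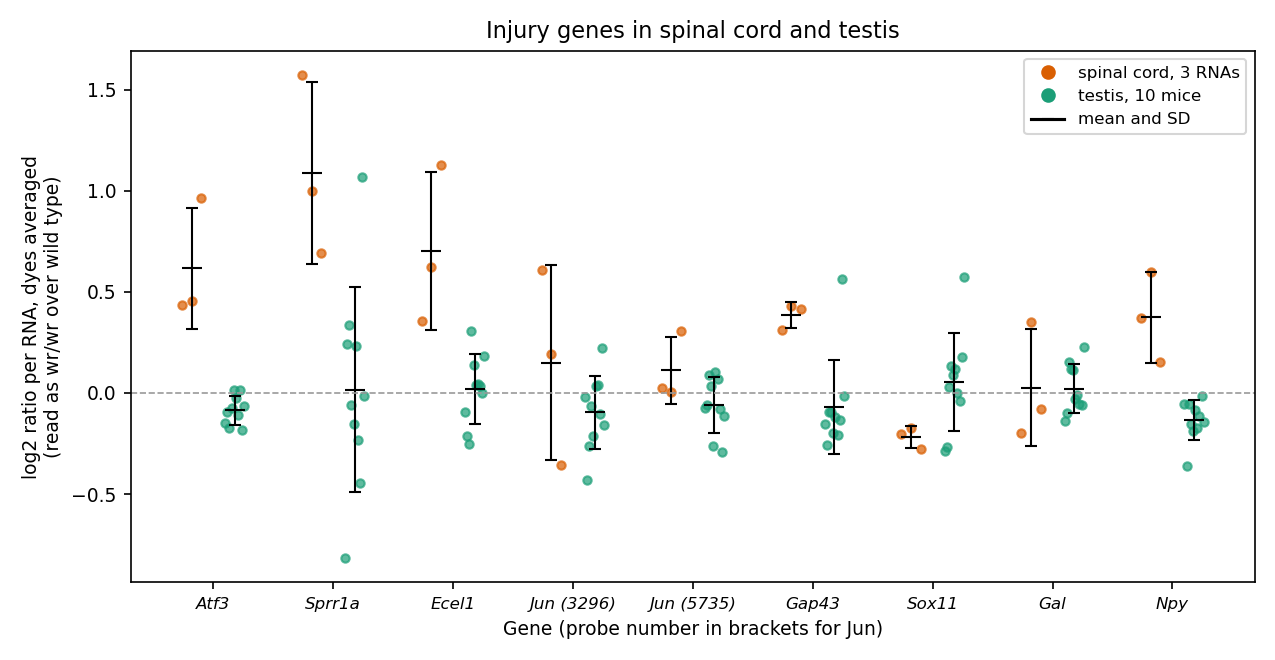
Log2 ratio per mutant RNA, dyes averaged, for the 9 member probes tested in both tissues (3 cord RNAs and 10 testis mice per probe). Crosses with bars give the mean and SD. The 3 cord values of Atf3, Ecel1 and Npy lie above all 10 testis values, while mouse 6065 in testis lies among the cord values of Sprr1a and above those of Gap43.

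The tissues were then compared directly, to ask whether the wr/wr ratio differed between them. With 1 pooled spread over the 13 RNAs, limma called 5 of the 9 member probes lower in testis than in cord, as it did 10.4% of all 17005 probes (21.2% in either direction). Atf3 was lower by 0.70 (testis minus cord -0.70, interval -0.92 to -0.49; adjusted p = 0.00161), so that its cord ratio was 1.63 times its testis ratio. Npy differed by -0.51 (adjusted p = 0.00427), Ecel1 by -0.68 (0.00805), Sprr1a by -1.07 (0.0252) and Gap43 by -0.45 (0.0332). Every cord RNA lay above every testis mouse for Atf3, Ecel1 and Npy, as for 6.89% of all probes.

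None of these 5 calls held when the 2 tissues were given separate weights, chosen after the data were seen because cord RNAs vary more. That fit called 8 probes in all, and gave adjusted p of 0.0693 for Atf3, 0.162 for Npy, 0.195 for Ecel1, 0.367 for Sprr1a and 0.418 for Gap43. The paired fit, in which the replicate block joined each cord RNA to the testes of its own mice, called no probe and gave adjusted p = 0.391 for each of the 5 (differences of -0.68, -0.50, -0.63, -1.13 and -0.47 in that order). Its unadjusted p was under 0.05 for 2152 of 16983 probes, and for all 5. The differences of Jun (-0.25 and -0.17, adjusted p = 0.305 and 0.236 by limma), Sox11 (0.27, interval -0.03 to 0.58) and Gal (0.00, interval -0.24 to 0.24) were not called with the pooled spread.

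The other genes of the program were taken from lists by function, with the members left out, and in cord none passed the adjusted test. Of the growth cone and regrowth genes, 8 of 50 probes (32 genes) had an unadjusted limma p under 0.05 with a mean above 0 and none with a mean below 0. Over all cord probes tested the shares were 4.29% and 4.36%, which also apply to the cord counts of the lists below. The list's median was 0.10 (0.23 in Cy5 and 0.05 in Cy3), against 0.00 over all probes tested. Its leading genes were Tubb6, a beta-tubulin isotype (0.84 ± 0.14), Csrp3, a muscle LIM protein also made by regenerating neurons (1.41 ± 0.56), and Marcks, an actin-binding growth cone protein (0.52 ± 0.12; SD, n = 3 each). In testis 9 of 54 probes of this list were called higher and 2 lower after adjustment (7.28% and 5.06% over all probes), led by S100a10 (0.50 ± 0.26), Tuba1a (0.30 ± 0.16) and Tubb2b (0.14 ± 0.06; SD, n = 10). Those shares also apply to the testis counts of the lists below.

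Among the other transcription factors of the injury response, 12 of 22 cord probes had a mean above 0, near the 49.5% of all cord probes tested. Of these 22 probes (16 genes), none had an unadjusted p under 0.05 with a mean above 0 and 3 had one with a mean below 0, with a list median of 0.02 (0.03 in Cy5 and -0.06 in Cy3). Those 3 were Klf4 and Klf9, which restrain axon growth (-0.98 ± 0.67 and -0.35 ± 0.08), and a probe of Atf4, the factor of the integrated stress response (-0.49 ± 0.23; SD, n = 3). In testis Atf2 (0.17 ± 0.08) and another Atf4 probe (0.26 ± 0.18; SD, n = 10) were called higher, 2 of 24 probes, and none lower. The Atf4 probes were 11715 in cord and 18438 in testis, with testis minus cord of 0.42 and 0.33. Each lay slightly below 0 in the other tissue, so neither was clearly lower in cord and also higher in testis.

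Among neuropeptides and their processing enzymes, 2 of 12 cord probes had an unadjusted p under 0.05 with a mean above 0, and both were Tac1, the substance P precursor (0.69 ± 0.22 and 0.37 ± 0.07). On Cy3 arrays these Tac1 probes read 0.56 and 0.09. Chga, a granule protein, had one with a mean below 0 (-0.37 ± 0.11; SD, n = 3). Of the kinase pathway to Jun, only Dusp4, a phosphatase of MAP kinases, reached an unadjusted p under 0.05 among 19 cord probes (0.46 ± 0.04, SD, n = 3), and the list's median was -0.06, with 0.09 on Cy5 and -0.21 on Cy3 arrays. No receptor or neurotrophic factor probe did among 12, with a median of -0.20. Testis calls in these lists were Mapk9 (0.25) and 1 Spag9 probe (0.18) higher and another Spag9 probe (-0.22) lower among the kinases, with 2 of 22 probes in each direction in all. Of 16 receptor and neurotrophic factor probes in testis, Ntrk3 probe 13325 (0.17) was called higher and Cntf (-0.23) lower. Ntrk3 probe 18872 lay at -0.17 (adjusted p = 0.0608 by limma).

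The p53 targets and cell death genes, which include the relatives of Gadd45a, had 28 cord probes. At an unadjusted limma p under 0.05, 1 had a mean above 0 (Trib3) and 1 a mean below 0 (Cdkn1a). Over all cord probes tested the shares were 4.29% and 4.36%. Cdkn1a, the cell cycle inhibitor p21, had a mean of -1.48 ± 0.32 and Trib3, a pseudokinase induced by ATF4, of 0.76 ± 0.36 (SD, n = 3). Cdkn1a lay low in both dyes (-1.79 in Cy5 and -1.18 in Cy3), while Trib3 read 0.26 in Cy5 and 1.26 in Cy3. In testis Perp (-0.16) and Bcl2l1 (-0.17) were called lower, 2 of 37 probes, and none higher. The list of relatives of Ecel1 and other members had 8 cord probes, of which 1 had an unadjusted limma p under 0.05. That was Mme (neprilysin), with a mean of -0.43 ± 0.13. The peptidase Ece1 went both ways in cord, with 0.69 ± 0.72 on probe 9461 and -0.20 ± 0.29 on probe 1221 (SD, n = 3 each). In testis Ece2 (-0.20) and Mme (-0.15) were called lower, 2 of 11 probes, and none higher.

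No marker of the cell types listed passed the adjusted test in cord. Over all cord probes tested, 4.29% had an unadjusted limma p under 0.05 with a mean above 0 and 4.36% with a mean below 0. The microglia and macrophage markers had a cord median of 0.63 (0.55 to 0.71 over the 3 RNAs), and 9 of 13 probes had an unadjusted p under 0.05 with a mean above 0, such as Lgals3 (1.43), Mpeg1 (0.86) and C1qa (0.67). Astrocyte markers had a median of 0.26, with 4 of 16 probes above 0 and 2 below at that p, and Vim, the intermediate filament of reactive astrocytes, reached 1.43. Motor neuron markers had a median of -0.41, with none of the 6 probes above 0, but the median was 0.00 on Cy5 arrays and -1.03 on Cy3 arrays. Nefh read -0.49 in Cy5 and -1.30 in Cy3, Nefm -0.31 and -1.19, and Ache turned sign (0.36 and -0.87). The microglia median was 0.65 in Cy5 and 0.64 in Cy3, the astrocyte median 0.44 and 0.17. Oligodendrocyte markers had a median of -0.37, which came to -0.23 on Cy5 and -0.61 on Cy3 arrays, with 4 of 8 probes below 0 at that p. The medians of other neurons (-0.20), muscle (-0.20), meninges (-0.12), endothelium and blood (-0.15; 0.15 in Cy5 and -0.39 in Cy3), and dorsal root ganglion neurons (0.17) were nearer 0, and of the Schwann cell markers only Pmp22 was measured (-0.57). Of the testis cell markers, Leydig cells had a cord median of -0.18, Sertoli cells 0.21 and germ cells 0.26. The germ cell median was 0.05 in Cy5 and 0.50 in Cy3, and ran from -0.03 to 0.705 over the 3 RNAs. Sox9 and Clu were in both the Sertoli and the astrocyte list. In testis the Leydig, Sertoli and germ cell medians were -0.27, 0.28 and 0.11. The part of these cell types in the members' ratios was not tested.

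**Figure D4:**
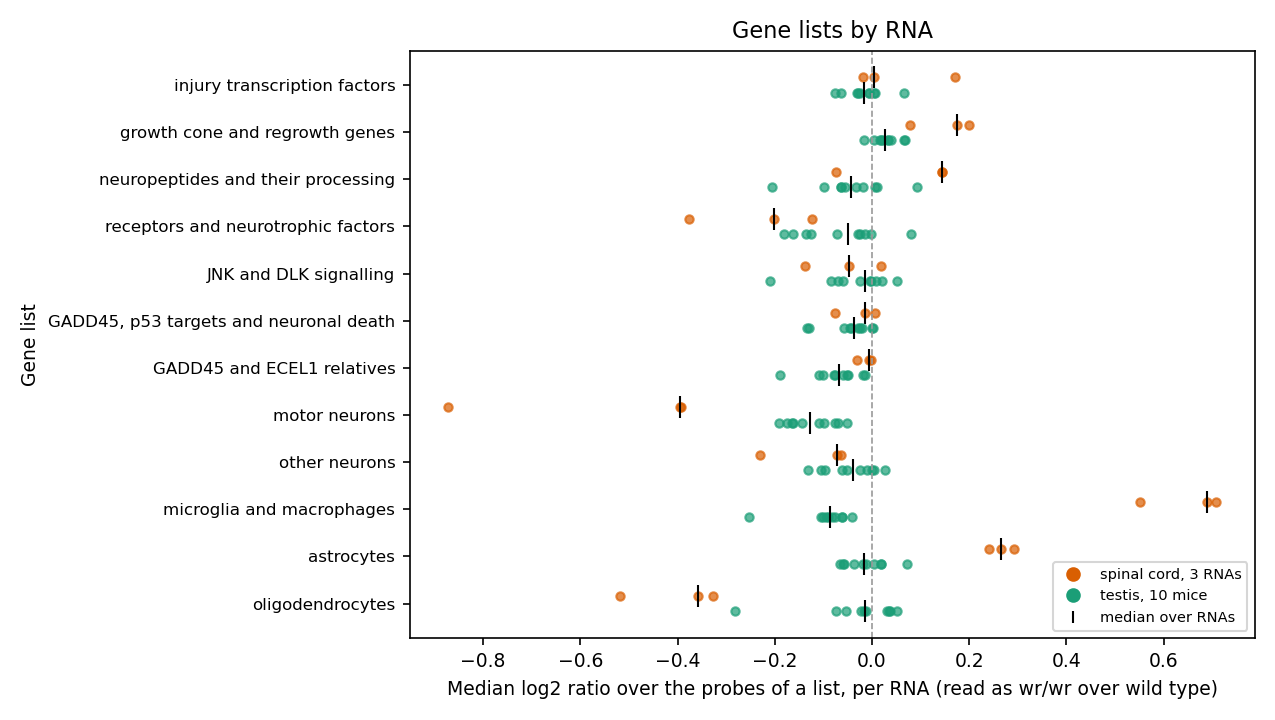
Median log2 ratio of the probes in each gene list, members included, 1 point per mutant RNA (3 in cord, 10 in testis) with a tick at the median over RNAs. In cord the microglia and macrophage markers lie from 0.55 to 0.71 and the motor neuron markers from -0.87 to -0.39. The injury transcription factors lie near 0 in both tissues.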

How the data were processed

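Total RNA of spinal cord and testis was reverse transcribed and indirectly coupled to Cy3 or Cy5, per the labels' protocols. The unit is the log2 ratio as the authors deposited it, 1 value per probe and array. The scanner, background correction, normalization and direction are not stated in the sources used here. Of 20355 probes, 14030 had 1 platform gene symbol, 5 had several and 6320 none. Symbols were checked against RefSeq (13994 matched by gene identifier and none changed).

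Each array was centred on its median, the Cy5 mean and the Cy3 mean were averaged per RNA, and RNAs were the replicates. Ratios were tested against 0 with limma 3.58.1 (R 4.3.3, lmFit and eBayes), Benjamini-Hochberg adjusted over all probes tested, at 0.05. Probes needed a value in both orientations in all 3 cord RNAs or in at least 8 testis mice. The tissue difference used 13 RNAs with 1 pooled spread. That is too liberal, because the few cord RNAs vary more than the testis mice (median SD 0.264 against 0.173). The fits were also run on simulated data with known shifts, and the outcomes are not given here.

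The members and lists were chosen with earlier results of these data known. Every member probe is given, and from other lists at most the 3 genes with the smallest p per tissue. Cord RNAs and testes came from the same mice, which pairs them, although the deviations of a cord RNA and its own testes correlated by only -0.00867 (pool1), 0.00547 (pool2) and 0.00842 (mouse 5995). Alternatives changed the dye orientation, the floor-like values, centring, spread, direction, filter, moderation, averaging of probes, the block and the RNAs included. Promoter sequences are RefSeq's, GRCm38.p6. No array values of signal strength were used, so signal over background is unknown.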

Additional observations from a re-analysis of the deposited data

Results flagged for a closer look

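Mouse 6065 stood apart from the other 9 in testis for Gap43, at 0.56 against -0.01 for the nearest mouse, a gap of 0.704 of the whole range. For Npy, mouse 5907 lay at -0.36 with the nearest mouse at -0.19, a gap of 0.503 of the range. For Jun probe 20296, which was not tested, mouse 6335 lay at -8.09 among 7 mice and the nearest at -0.27, a gap of 0.788, from 1 floor-like Cy3 value. Chance sets apart about 1 group in 20, and 11 member probes were checked. In mouse 6065 the Cy5 and Cy3 arrays tended weakly to rank the probes inversely (rank correlation -0.309). That correlation was -0.223 in mouse 5905 and -0.112 in mouse 5997, and from 0.0635 to 0.361 in the other testis mice.

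The wr/wr ratio differed between testis and cord with a pooled spread for Atf3 (-0.702), Sprr1a (-1.07), Ecel1 (-0.683), Gap43 (-0.455) and Npy (-0.508). With a weight per tissue none of the 5 was called.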

How the results depend on the processing

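In cord no probe passed the adjusted limma test in 12 of 13 alternatives (1476 at an unadjusted p under 0.05 with all RNAs), and the fit of all arrays with the RNA as a random block called 362, of which 30.1% were higher. In testis 2494 probes were called (59.0% higher), against 1352 on Cy3 arrays alone (38.3% higher), 949 with ratios read as Cy5 over Cy3 (84.4%), 1269 genes with probes averaged, 4590 in the fit of all arrays, and 846 to 2618 when a mouse was left out (1614 without 5906, 1296 without 5907, 1036 without 6069, 1278 without 6335, 1567 without 5995 and 846 without 6493). Between the tissues 3604 were called (50.9% higher in testis), against 1604 on Cy5 arrays, 1832 read as Cy5 over Cy3 (62.5%), 1689 genes, 8 with a weight per tissue, 0 with the replicate block, and 2855 to 4684 when an RNA was left out. The causes were not tested.

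Atf3, Gap43, Npy and Sox11 in cord kept their sign in all 13 alternatives run, but several of these could not turn it. A changed filter or moderation leaves the mean as it was. All 3 RNAs shared a sign for each of these genes, so leaving an RNA out could not turn it either. For Atf3 and Gap43 all 10 cord arrays were above 0, so the arrays of a single dye could not turn it. For Npy and Sox11 those arrays could have turned it and did not. The reading as Cy5 over Cy3 could have turned it for each of these genes and did not. Signs turned for Sprr1a in cord (-0.123), testis (-0.0779) and the difference (0.0456) with ratios read as Cy5 over Cy3, and in testis on Cy5 arrays (-0.0624), with scaled arrays (-0.0622), without the 3 mice whose dyes disagree (-0.161) and over left-out mice (-0.101 to 0.108). Ecel1 turned on Cy3 arrays in cord (-0.10) and the difference (0.181), and in testis on Cy5 arrays (-0.0427), with the other reading (-0.0620), without those 3 mice (-0.00443) and over left-out mice (-0.0124 to 0.0496). Jun probe 3296 turned in cord over left-out RNAs (-0.0799 to 0.401, the first without pool1), in testis on Cy5 arrays (0.0438) and with the other reading (0.140; difference 0.105). Jun probe 5735 turned on Cy3 arrays in cord (-0.153) and the difference (0.0915), and with the other reading in testis (0.00303). Gap43 turned in testis on Cy3 arrays (0.128), Gadd45a in testis with the other reading (2.01), and Npy in testis on Cy3 arrays (0.00445). Sox11 turned in testis on Cy5 arrays (-0.0116), with the other reading (-0.0644), without those 3 mice (-0.0486) and over left-out mice (-0.00519 to 0.0908). Gal turned in cord on Cy3 arrays (-0.182), with scaled arrays (-0.0187) and over left-out RNAs (-0.138 to 0.137). In testis Gal turned on Cy5 arrays (-0.0786), with the other reading (-0.101) and over left-out mice (-0.00103 to 0.0399). Its difference turned on Cy3 arrays (0.304), without centring (0.00440), with scaled arrays (0.0389), with the replicate block (0.0291) and over left-out RNAs (-0.115 to 0.160).

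The difference for Gap43 was not called on Cy3 arrays (-0.04, adjusted p = 0.948 by limma), with the other reading, or without pool2, mouse 5995 (cord) or testis mice 5906, 6335 or 6493 (adjusted p from 0.05001 to 0.0902). That for Sprr1a was not called without pool1 or pool2 (0.0916 and 0.0503) or on 1 dye alone (0.0517 and 0.124). Those for Npy and Atf3 were not called with the other reading (0.0579 and 0.145), nor Npy on Cy3 arrays (0.397). Jun probe 3296 was called without cord mouse 5995 (-0.50, 0.0444), and Gap43 in testis on Cy5 arrays (-0.27, 0.0359).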
